A study of Mus musculus with 4 samples.

Results

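The 10 genes described here encode the machinery that gates entry into the cell cycle from G1: the D-type cyclins Ccnd1, Ccnd2 and Ccnd3, their kinases Cdk4 and Cdk6, and the inhibitors Cdkn1a, Cdkn1b, Cdkn2a, Cdkn2c and Cdkn2d. They were taken by name from the 30731 genes counted in all libraries. RNA-seq was available for 4 libraries of mouse innate lymphoid cells in 3 groups. MNK-3, a wild-type line described as ILC3-like, was derived from NIH-Swiss fetal thymocytes of day 15 and grown in IL-7 and IL-15 at 10 ng/ml (2 libraries). ILC2 came from the bone marrow of wild-type C57BL/6 mice of 8 to 12 weeks, pooled, and were grown in IL-25, IL-33, IL-2 and IL-7, each at 10 ng/ml (1 library). NK cells, labelled as group 1, came from the spleen of pooled wild-type C57BL/6 mice of the same age, with no culture stated (1 library).

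In mammalian cells a D-type cyclin binds Cdk4 or Cdk6, and the active kinase phosphorylates the retinoblastoma protein, which releases E2F factors to switch on the genes of S phase. INK4 proteins (p16INK4a from Cdkn2a, and the products of Cdkn2c and Cdkn2d) bind the kinases and keep the cyclin away. The Cip/Kip proteins p21 (Cdkn1a) and p27 (Cdkn1b) bind cyclin and kinase together. In lymphocytes the D-type cyclins are induced downstream of cytokine and growth signals, and loss of the Cdkn2a locus is common in immortalised mouse lines.

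Each comparison sets whole cell populations against each other. MNK-3 differs from NK cells and ILC2 in tissue, strain, age at source (fetal against adult), culture and the gene set used for counting. It is also a line, and they are not. ILC2 differ from NK cells in tissue and culture. None of these differences can be told apart from cell type. In such bulk samples, fewer cells of a kind and less RNA per cell cannot be told apart either. Levels are CPM (gene reads scaled to library size), after trimmed-mean scaling. Tests are limma voom fits over 25283 genes, with calls at a Benjamini-Hochberg adjusted p under 0.05. The only residual degree of freedom comes from the MNK-3 pair, so the lone NK and ILC2 libraries are assumed to vary like it, and p-values reflect no more than how much these libraries vary. A second count, made without a test, takes genes at a 2-fold difference or more whose higher group reaches 10 CPM. All counts of genes at 2-fold below, for the 10 genes, the lists and the tested genes, use this rule. Size ratios are taken on CPM + 0.5, which understates the change of low genes.

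The libraries held 25617762 and 15177345 gene reads in MNK-3 replicates 1 and 2, 9298162 in ILC2 and 4637812 in NK cells. MNK-3 replicate 1 stood apart, with 75.8% of its reads outside genes, against 24.3% in MNK-3 replicate 2, 23.1% in ILC2 and 47.1% in NK cells. Genes under 1 CPM in replicate 2 were higher in replicate 1 by a median log2 of 1.99, while those at 100 CPM or more lay at a median log2 of -0.97. Among the 10 genes, Ccnd1 and Ccnd2 were the ones clearly higher in replicate 1, at log2 2.86 and 1.55, and the other 8 lay between -1.26 and 0.04. Size ratios of MNK-3 are therefore also given without replicate 1 and without replicate 2. As sums over each list, markers of the 3 groups followed the labels. Summed over 6 NK markers, levels were 60.1 and 81.4 CPM in MNK-3, 22.9 CPM in ILC2 and 6737 CPM in NK cells. The 5 ILC2 markers summed to 104 and 112 CPM in MNK-3, 6705 CPM in ILC2 and 127 CPM in NK cells, and the 6 group 3 markers to 1346 and 3210.1 CPM in MNK-3, 268 CPM in ILC2 and 90.9 CPM in NK cells. Il17rb, an ILC2 marker, was low in ILC2 at 4.87 CPM. T cell, B cell and myeloid markers summed to at most 79.4, 21.3 and 237 CPM in any library, the last mostly Itgam in NK cells at 225 CPM.

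**Figure D1:**
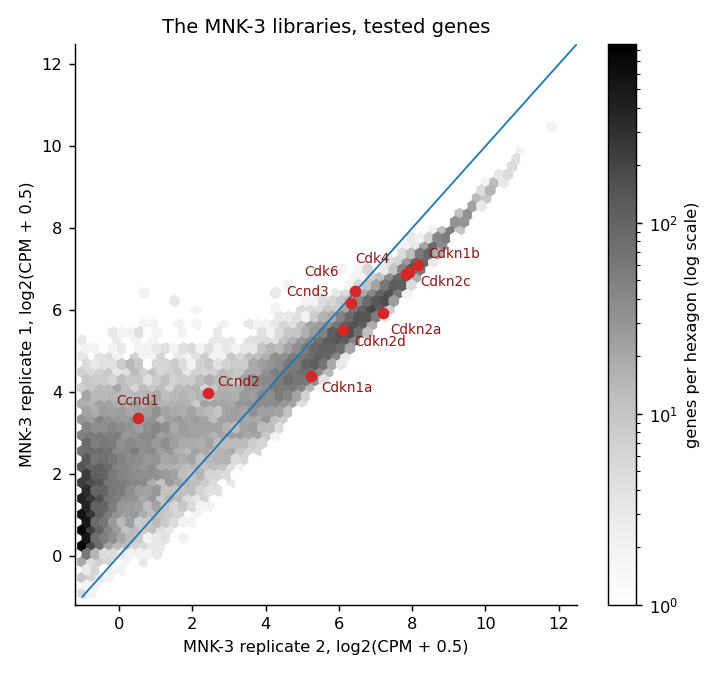
Level of each tested gene in MNK-3 replicate 1 (vertical) against MNK-3 replicate 2 (horizontal), both as log2(CPM + 0.5); grey hexagons count genes on a log scale, the line marks equal levels, and the 10 G1 genes are red. Ccnd1 and Ccnd2 lie above the line, in the region of low genes that are higher in replicate 1.

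Of the 10 genes, MNK-3 had 1 called lower than in NK cells and 0 called higher, where 0.518% of the tested genes were called lower and 0.00791% higher. That gene was Ccnd2. By size, 4 of the 10 were higher in MNK-3 (Cdk4, Cdkn1a, Cdkn2a and Cdkn2c), beside 14.0% of tested genes, and 2 were lower (Ccnd2 and Ccnd3), beside 5.16%. The median log2 ratio of the 10 genes was 0.62, and that of the tested genes 0.68. Without replicate 1 the same genes were counted, with medians of 0.48 over the 10 genes and -0.20 over the tested genes. Without replicate 2, Cdk4 was no longer counted and Cdkn1b was counted as lower, which made 3 higher (tested genes 11.1%) and 3 lower (10.3%), with medians of 0.58 and 0.73. Against ILC2, MNK-3 again had 1 gene called lower, Ccnd2, where 0.332% of tested genes were called lower, and 0 called higher. By size, 2 of the 10 were higher in MNK-3 than in ILC2 (Cdkn2a and Cdkn2c), beside 8.48% of tested genes, and 4 were lower (Ccnd2, Ccnd3, Cdk6 and Cdkn1a), beside 7.19%. The medians were -0.42 over the 10 genes and 0.78 over the tested genes. Without replicate 1 the same genes were counted, with medians of -0.61 and 0.00. Without replicate 2, Cdk4 and Cdkn2d were also counted as lower, which made 6 lower, beside 15.8% of tested genes, with medians of -1.23 and 0.93. Between ILC2 and NK cells, limma voom called 0 of the 10 and 0.00% of the tested genes, with 589 genes (2.33%) at an unadjusted p under 0.05, 1 of them among the 10 (Cdk6). By size, 4 of the 10 were higher in ILC2 (Cdk4, Cdk6, Cdkn1a and Cdkn2c), beside 12.4% of tested genes, and 0 were lower, beside 4.43%. The medians were 0.98 and -0.05. The genes counted depended on scaling. With library totals, Cdkn2c fell under 2-fold (log2 0.95) and Ccnd3 was counted as lower (-1.05). With factors from abundant genes the values were 0.98 and -1.03. Both MNK-3 comparisons share the MNK-3 libraries, so their calls are not independent.

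**Figure D2:**
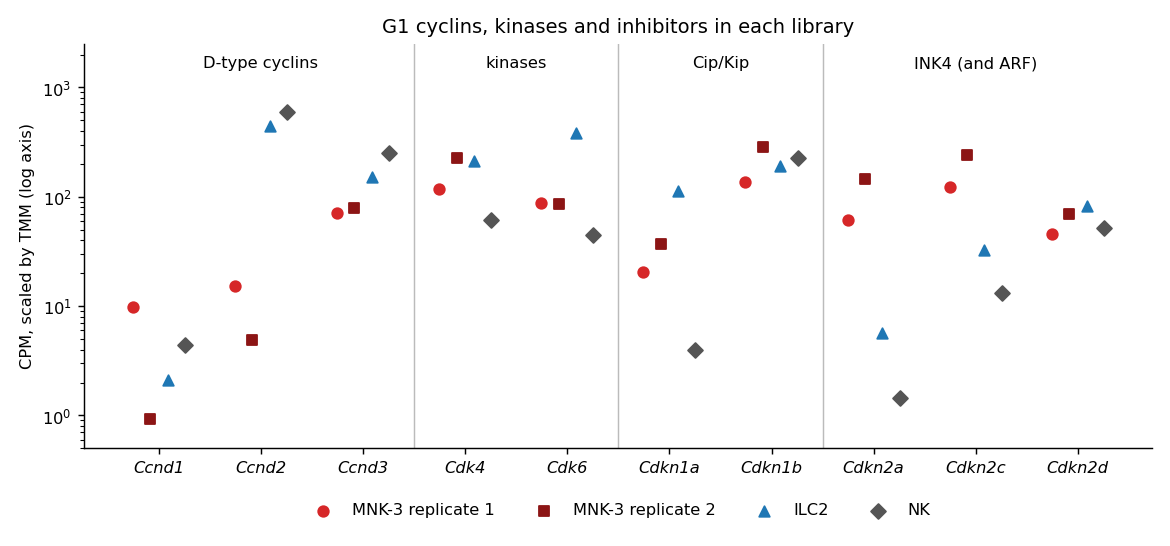
CPM of the 10 genes (log axis) in MNK-3 replicates 1 and 2 (circles and squares), ILC2 (triangles) and NK cells (diamonds), 1 point per library. Ccnd2 is high in ILC2 and NK cells and low in MNK-3, while Cdkn2a and Cdkn2c are highest in MNK-3.

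**Figure D3:**
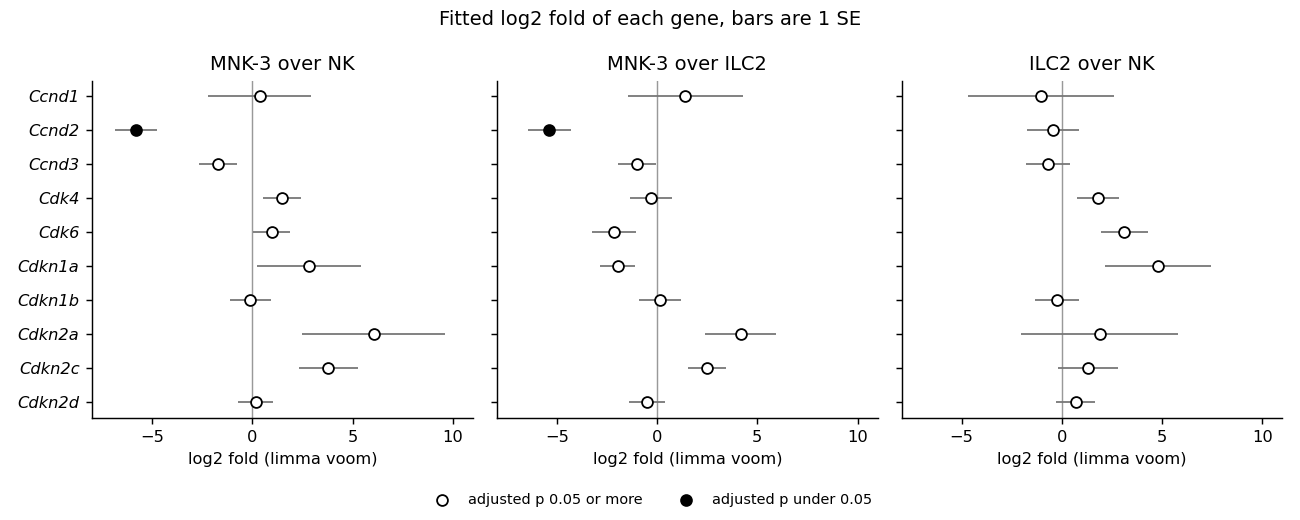
Fitted log2 fold of each gene in the 3 comparisons (limma voom), with bars of 1 SE; filled points have an adjusted p under 0.05. The filled points are Ccnd2 in MNK-3 over NK cells, at -5.82, and in MNK-3 over ILC2, at -5.39.

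Ccnd2, the D-type cyclin best known in lymphocytes as a target of cytokine signals, carried the widest fall. It had 15.2 and 4.87 CPM in MNK-3 (541 and 63 reads), against 439.9 CPM in ILC2 and 593 CPM in NK cells (3339 and 2849 reads). Both MNK-3 libraries were far below both other libraries. The NK level was 39.0 times that of MNK-3 replicate 1 and 122 times that of replicate 2, and the ILC2 level was 28.9 and 90.3 times theirs. The fitted log2 fold was -5.82 (SE 1.06, limma voom adjusted p = 5.61e-05) for MNK-3 over NK cells and -5.39 (SE 1.08, adjusted p = 0.00115) for MNK-3 over ILC2. The size ratio of Ccnd2 was log2 -6.97 without replicate 1 and -5.61 without replicate 2 against NK cells, and -6.41 and -5.17 against ILC2. ILC2 and NK cells differed at log2 -0.43 (SE 1.30), well within that error. The calls depended on scaling: with factors from abundant genes, limma voom gave an adjusted p of 1.00 in both comparisons, at log2 -5.65 for MNK-3 over NK cells and -4.90 for MNK-3 over ILC2, and with median-of-ratios factors the adjusted p for MNK-3 over ILC2 was 0.0509. Over the other settings it ran up to 0.0156 for MNK-3 over NK cells. Ccnd2 spans 6:127125162-127152193 on the minus strand (mm10/GRCm38, GENCODE M21), and antisense transcripts on the plus strand, Gm43126 and 9330179D12Rik, overlap 3.95% and 3.91% of its exon bases. 9330179D12Rik had 29 and 0 reads in MNK-3, 1 in ILC2 and 1 in NK cells.

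Ccnd3, the D-type cyclin tied to lymphoid precursor expansion, was measured at 71.0 and 79.8 CPM in MNK-3, 153 CPM in ILC2 and 251 CPM in NK cells. The MNK-3 pair lay close together and below the other libraries. The log2 fold was -1.72 (SE 0.96, limma voom adjusted p = 1.00) for MNK-3 over NK cells and -1.01 (SE 0.96, adjusted p = 1.00) for MNK-3 over ILC2. With library totals in place of the scaling factors the first became -1.61 (SE 0.38) and was called, at an adjusted p of 0.00131, and it was not called in the other alternatives. Without replicate 1 the size ratio of Ccnd3 was -1.85 against NK cells and -1.01 against ILC2, and without replicate 2 it was -2.18 and -1.47. Ccnd3 lies at 17:47505051-47599691 on the plus strand, and 4.11% of its exon bases overlap Bysl on the other strand. Ccnd1, the cyclin most used by epithelial and fibroblastic cells, was low in all libraries: 9.84 and 0.928 CPM in MNK-3 (350 and 12 reads), 2.11 CPM in ILC2 (16 reads) and 4.37 CPM in NK cells (21 reads). The MNK-3 libraries lay on both sides of ILC2 and NK cells, so no direction is given: the size ratio for MNK-3 over NK cells was log2 -1.89 without replicate 1 and 0.74 without replicate 2. Of its exon bases at 7:144929931-144939925 (minus strand), 23.4% overlap LTO1 on the other strand, which had 939 and 266 reads in MNK-3, 137 in ILC2 and 145 in NK cells. The strand setting of the counting is not given in the sources used here, so how reads in such overlaps were assigned is not known.

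Within a library, the shares of the D-type cyclins do not depend on scaling between libraries. Per kb of exon, Ccnd2 made up 13.7% and 5.28% of D-type cyclin reads in MNK-3, 72.4% in ILC2 and 68.1% in NK cells. Ccnd3 made up 68.6% and 92.7% in MNK-3, 26.95% in ILC2 and 30.9% in NK cells. ILC2 and NK cells thus had the same leading D-type cyclin, and MNK-3 another. Ccnd1 accounted for 17.7% and 2.01% in MNK-3, 0.693% in ILC2 and 1.00% in NK cells. As a share of raw reads, Ccnd2 had 15.8% (exact 95% interval 14.6 to 17.1) and 5.69% (4.40 to 7.22) in MNK-3, 74.0% (72.6 to 75.2) in ILC2 and 69.9% (68.5 to 71.3) in NK cells. The intervals of the MNK-3 libraries do not meet those of ILC2 and NK cells; they cover counting error only.

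**Figure D4:**
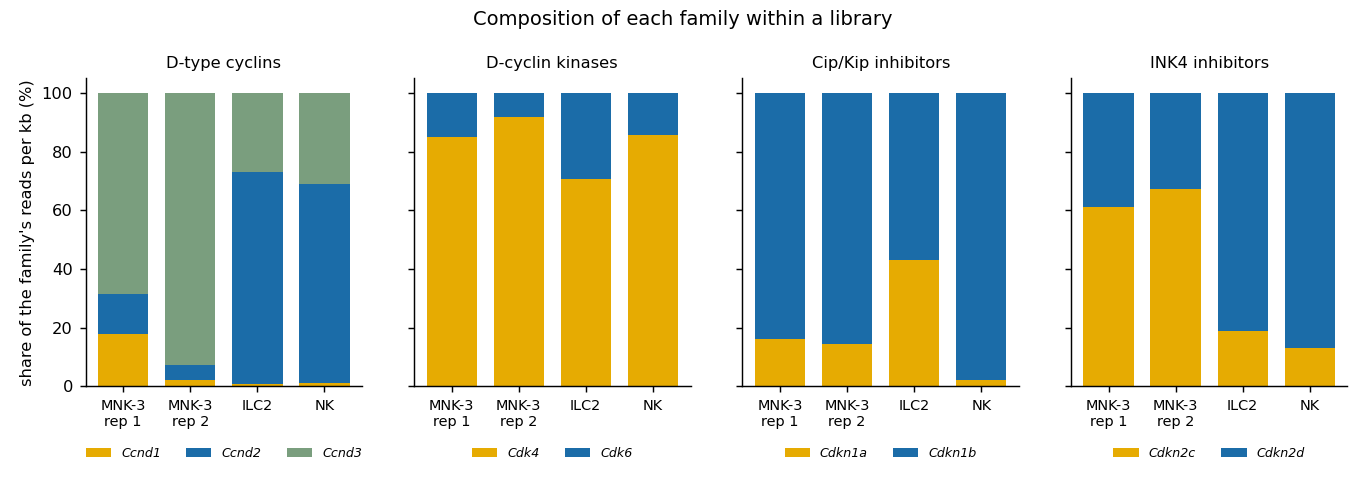
Share of each gene in its family's reads per kb of exon (percent), 1 bar per library, for the D-type cyclins, their kinases, the Cip/Kip inhibitors and the INK4 pair Cdkn2c and Cdkn2d. Ccnd3 fills most of the cyclin bar in MNK-3 and Ccnd2 most of it in ILC2 and NK cells; Cdkn1a is largest in ILC2, at 43.1%.

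Cdk4 and Cdk6 encode the kinase partners of these cyclins. Cdk4 had 118 and 227 CPM in MNK-3, 215 CPM in ILC2 and 62.0 CPM in NK cells. ILC2 fell between the MNK-3 libraries, and NK cells were lowest. The log2 fold was 1.48 (SE 0.94) for MNK-3 over NK cells, 1.79 (SE 1.05) for ILC2 over NK cells and -0.31 (SE 1.05) for MNK-3 over ILC2, none of them called by limma voom (adjusted p = 1.00 each). The size of the first depended on the MNK-3 library, at log2 1.65 without replicate 1 and 0.55 without replicate 2. That of MNK-3 over ILC2 was 0.0014 without replicate 1 and -1.24 without replicate 2. Cdk4 lies at 10:127063534-127067920 on the plus strand. Tspan31, on the other strand, overlaps 19.7% of its exon bases and had 1380 and 855 reads in MNK-3, 405 in ILC2 and 6 in NK cells. Tspan31 thus moved with Cdk4 across the cell types, and its part in the Cdk4 values was not tested.

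The RefSeq promoter window of Cdk4 (250 bases before to 50 after the start, GRCm38.p6, chr10:127063285-127063584, plus strand) is shown because it holds CACGTG, the E-box bound by Myc-type factors, 4 times. The matches are in capitals, at -172, -118, -98 and -11 from the start.
Cdk4 promoter: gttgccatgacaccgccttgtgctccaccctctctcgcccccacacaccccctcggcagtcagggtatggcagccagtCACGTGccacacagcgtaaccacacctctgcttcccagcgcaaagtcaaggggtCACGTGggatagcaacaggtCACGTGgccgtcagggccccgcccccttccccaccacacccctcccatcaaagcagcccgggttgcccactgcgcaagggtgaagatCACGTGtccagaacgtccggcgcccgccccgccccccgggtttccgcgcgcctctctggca
CACGTG, the same on both strands, occurs in 7.15% of the 32851 promoter windows, and 8 windows, or 0.0244%, hold it at least 4 times. RefSeq windows were found for 8 of the 10 genes, 12 windows in all, and 3 of them hold the motif (Cdk4, Cdk6 and Cdkn2c). Motif matches describe these letters only. Myc itself, an E-box binding factor, had 36.5 and 22.9 CPM in MNK-3, 280.0 CPM in ILC2 and 60.1 CPM in NK cells, and Mycn had 16.9 and 27.7 CPM in MNK-3, 2.77 CPM in ILC2 and 2.29 CPM in NK cells. Myc was highest in ILC2 and Mycn in MNK-3, and neither was called in any comparison.

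Cdk6 was set apart in ILC2. It had 88.5 and 85.9 CPM in MNK-3, 386 CPM in ILC2 and 44.3 CPM in NK cells (213 reads). The MNK-3 libraries were nearly equal, and ILC2 was above both. By size, ILC2 was 8.61-fold above NK cells and MNK-3 4.40-fold below ILC2. The log2 fold was 3.12 (SE 1.15, unadjusted p = 0.00693, limma voom adjusted p = 1.00) for ILC2 over NK cells, -2.15 (SE 1.08, adjusted p = 1.00) for MNK-3 over ILC2 and 0.97 (SE 0.92, adjusted p = 1.00) for MNK-3 over NK cells. The difference from ILC2 was called with library totals, at log2 -1.66 (SE 0.30, adjusted p = 4.04e-06), and ILC2 over NK cells with counts thinned to equal depth, at log2 2.96 (SE 0.84, adjusted p = 0.0412). The size ratio of MNK-3 over ILC2 was log2 -2.24 without replicate 1 and -2.49 without replicate 2, and that of MNK-3 over NK cells 0.74 and 0.62. Per kb, Cdk6 made up 14.9% and 8.08% of the kinase reads in MNK-3, 29.4% in ILC2 and 14.2% in NK cells, so Cdk4 led per kb in each library. Cdk6 lies at 5:3341485-3531008 on the plus strand, with 2.63% of its exon bases overlapped by Gm17590.

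Among the Cip/Kip inhibitors, Cdkn1a (p21), a textbook target of p53, was highest in ILC2. It had 20.5 and 37.0 CPM in MNK-3, 112 CPM in ILC2 and 3.95 CPM in NK cells, the last from 19 reads (exact Poisson 95% interval 2.38 to 6.17 CPM). The MNK-3 pair lay above the NK library and below the ILC2 library, with 1 library for each of those groups. By size ILC2 was 25.3-fold above NK cells and MNK-3 was 3.86-fold below ILC2. The log2 fold was 4.79 (SE 2.64, limma voom adjusted p = 1.00) for ILC2 over NK cells, 2.81 (SE 2.59, adjusted p = 1.00) for MNK-3 over NK cells and -1.98 (SE 0.88, adjusted p = 1.00) for MNK-3 over ILC2. The last was called with library totals, at -1.63 (SE 0.47, adjusted p = 0.0214). Leaving out a library moved the size: MNK-3 over ILC2 was log2 -1.67 without replicate 1 and -2.79 without replicate 2, and MNK-3 over NK cells 2.86 and 1.89. Cdkn1b (p27), which holds resting lymphocytes out of the cycle, had 136 and 285 CPM in MNK-3, 189.9 CPM in ILC2 and 226 CPM in NK cells. ILC2 and NK cells both lay between the MNK-3 libraries, and the log2 folds of -0.10 (SE 1.02) for MNK-3 over NK cells, 0.15 (SE 1.05) for MNK-3 over ILC2 and -0.25 (SE 1.10) for ILC2 over NK cells were within their errors. The direction of Cdkn1b in MNK-3 turned with the library: the size ratio was log2 0.12 against NK cells and 0.51 against ILC2 without replicate 1, and -1.10 and -0.85 without replicate 2. Per kb, Cdkn1a held 16.2% and 14.3% of the reads of the pair in MNK-3, 43.1% in ILC2 and 2.19% in NK cells. Cdkn1a lies at 17:29090976-29100727 (plus strand) and Cdkn1b at 6:134920401-134925513 (plus strand); 7.68% of Cdkn1a exon bases are overlapped by AC167363.2 on the other strand, and none of Cdkn1b.

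The window of the upstream RefSeq start of Cdkn1a (chr17:29090729-29091028, plus strand) is shown because it holds CATGNNNNNNCATG, a p53-type full site that reads the same on both strands, at -48. The match is in capitals.
Cdkn1a promoter: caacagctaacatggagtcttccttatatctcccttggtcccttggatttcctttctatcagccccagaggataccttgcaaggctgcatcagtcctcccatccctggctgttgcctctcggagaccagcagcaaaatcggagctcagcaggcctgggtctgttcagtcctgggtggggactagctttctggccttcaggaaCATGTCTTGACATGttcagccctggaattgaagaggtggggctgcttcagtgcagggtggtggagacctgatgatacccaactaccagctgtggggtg
This motif occurs in 0.712% of all windows and in 1 of the 12 windows of the 10 genes. Trp53, which encodes p53, was at 65.8 and 128 CPM in MNK-3, 115 CPM in ILC2 and 61.0 CPM in NK cells, and Mdm2, its inhibitor and target, at 70.2 and 115 CPM in MNK-3, 167 CPM in ILC2 and 91.8 CPM in NK cells. Of 16 listed p53 targets, 8 were 2-fold or more higher and 2 lower in ILC2 than in NK cells, beside 12.4% and 4.43% of tested genes. Their median log2 ratio was 1.26, against -0.05 for all tested genes. In MNK-3, 1 was higher and 5 lower than in ILC2, beside 8.48% and 7.19% of tested genes (median -0.80, all tested genes 0.78). Against NK cells, 3 were higher and 3 lower in MNK-3, beside 14.0% and 5.16% (median 0.45, all tested genes 0.68). The shares counted as higher in MNK-3, 6.25% against ILC2 and 18.75% against NK cells, were near those of the tested genes. The MNK-3 medians moved with the library. Against NK cells the median was 0.01 without replicate 1 (all tested genes -0.20) and -0.12 without replicate 2 (all tested genes 0.73). In the latter, 2 were higher and 5 lower, beside 11.1% and 10.3% of tested genes. Against ILC2 the median was -0.55 and -1.21 (all tested genes 0.00 and 0.93). Without replicate 2, 0 were higher and 9 lower than in ILC2, beside 8.24% and 15.8% of tested genes. None of the 16 was called in any comparison. Tnfrsf10b, a death receptor gene, had 6.33 and 1.78 CPM in MNK-3, 45.5 CPM in ILC2 and 1.66 CPM in NK cells. Pmaip1, which encodes the apoptosis factor Noxa, had 1.52 and 0.232 CPM in MNK-3, 23.7 CPM in ILC2 and 14.98 CPM in NK cells. Both were lower in MNK-3 than in ILC2, as Cdkn1a was, at log2 size ratios of -3.34 for Tnfrsf10b and -4.14 for Pmaip1, while Pmaip1 was also lower than in NK cells, where Cdkn1a was not.

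Cdkn2a encodes p16INK4a, an INK4 kinase inhibitor, and, from another first exon and reading frame, p19ARF, which stabilises p53 by binding Mdm2. It had 60.9 and 147 CPM in MNK-3 (2166 and 1901 reads), 5.67 CPM in ILC2 (43 reads) and 1.46 CPM in NK cells (7 reads, exact Poisson 95% interval 0.586 to 3.00 CPM). Both MNK-3 libraries were well above ILC2, by 10.8-fold and 25.96-fold, and above NK cells, by 41.8-fold and 101-fold. The log2 fold was 6.04 (SE 3.59, limma voom adjusted p = 1.00) for MNK-3 over NK cells and 4.16 (SE 1.76, adjusted p = 0.840) for MNK-3 over ILC2, neither called. Size ratios stayed positive in each of 10 alternatives, between log2 4.65 and 6.06 against NK cells and between 2.96 and 4.49 against ILC2, the low end without replicate 2 in both. ILC2 over NK cells came to log2 1.88 (SE 3.90), within its error. The count per gene does not separate p16INK4a from p19ARF and does not show which exons were covered.

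The gene lies at 4:89274471-89294653 on the minus strand, with no annotated overlap. Its RefSeq windows are shown because each start holds 1 copy of TTTNNCGC, searched on both strands. This is a loose E2F-type motif in which N is any base, so a match does not mark a known E2F site. The match is in capitals, at -244 for the p16INK4a start (chr4:89282143-89282442, minus strand) and at -99 for the p19ARF start (chr4:89294570-89294869, minus strand).
Cdkn2a p16INK4a start: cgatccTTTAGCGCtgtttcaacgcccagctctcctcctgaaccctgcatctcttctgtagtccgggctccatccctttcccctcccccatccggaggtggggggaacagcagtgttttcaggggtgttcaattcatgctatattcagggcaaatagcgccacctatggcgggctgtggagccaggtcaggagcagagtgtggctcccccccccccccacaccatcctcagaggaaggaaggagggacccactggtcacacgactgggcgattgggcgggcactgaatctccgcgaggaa
Cdkn2a p19ARF start: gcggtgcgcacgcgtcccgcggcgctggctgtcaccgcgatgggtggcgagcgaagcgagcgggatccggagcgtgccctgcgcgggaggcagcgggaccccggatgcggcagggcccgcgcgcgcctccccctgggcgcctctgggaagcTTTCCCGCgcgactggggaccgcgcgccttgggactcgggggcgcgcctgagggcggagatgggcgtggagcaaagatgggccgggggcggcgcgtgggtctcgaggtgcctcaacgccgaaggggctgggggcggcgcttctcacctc
The motif was found in 3 of the 12 windows of the 10 genes, the third being Cdk6, and in 5.17% of all windows. The neighbours of Cdkn2a on chromosome 4 did not share its pattern throughout. Cdkn2b, which encodes the INK4 inhibitor p15, had 8.91 and 16.6 CPM in MNK-3, 2.64 CPM in ILC2 and 1.46 CPM in NK cells, in the same order as Cdkn2a. Mtap, a gene of methionine salvage, had 39.1 and 75.5 CPM in MNK-3, 80.8 CPM in ILC2 and 16.0 CPM in NK cells, and Dmrta1 had 22.1 and 48.9 CPM in MNK-3, 0.132 CPM in ILC2 (1 read) and 17.9 CPM in NK cells. Mtap was thus no lower in ILC2 than in MNK-3, and Dmrta1 had reads in NK cells. Counted at 2-fold with the limit of 10 CPM, 2 of these 3 were higher in MNK-3 than in NK cells. Without replicate 1 it was 3, and without replicate 2 it was 0. The shares of tested genes were 14.0%, 12.4% and 11.1%. Against ILC2, 2 were higher in MNK-3, beside 8.48% of tested genes. Without replicate 2, 1 was higher and 1 lower than in ILC2, beside 8.24% and 15.8%. Cdkn2b, at 8.91 CPM in replicate 1, lay under the CPM limit, so it was not counted there whatever its ratio. None of the 3 was called.

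Cdkn2c (p18INK4c) showed the same order of cell types as Cdkn2a. It had 122 and 242 CPM in MNK-3, 32.8 CPM in ILC2 and 13.1 CPM in NK cells (63 reads). Both MNK-3 libraries were above ILC2, by 3.72-fold and 7.38-fold, and above NK cells, by 9.31-fold and 18.5-fold. The log2 fold was 3.79 (SE 1.48, unadjusted p = 0.0104, limma voom adjusted p = 0.606) for MNK-3 over NK cells and 2.48 (SE 0.95, unadjusted p = 0.00944, adjusted p = 0.594) for MNK-3 over ILC2. With counts thinned to equal depth both were called, at adjusted p = 0.00116 (log2 3.56, SE 0.79) and 0.0249 (log2 2.34, SE 0.64), and against ILC2 also with library totals (adjusted p = 0.0110, log2 2.78, SE 0.76); elsewhere the adjusted p was 0.422 or more. The size ratio of Cdkn2c was log2 3.95 without replicate 1 and 2.81 without replicate 2 against NK cells, and 2.78 and 1.51 against ILC2. Cdkn2d (p19INK4d, a different protein from p19ARF) had 45.3 and 69.2 CPM in MNK-3, 82.7 CPM in ILC2 and 51.6 CPM in NK cells. NK cells lay between the MNK-3 libraries, and the log2 folds of 0.17 (SE 0.88) for MNK-3 over NK cells, -0.51 (SE 0.89) for MNK-3 over ILC2 and 0.68 (SE 0.98) for ILC2 over NK cells were within their errors. Without replicate 1 the size ratio of Cdkn2d was log2 0.21 against NK cells and -0.33 against ILC2, and without replicate 2 it was -0.55 and -1.23. Per kb, Cdkn2c made up 61.2% and 67.2% of the reads of these 2 genes in MNK-3, 18.9% in ILC2 and 13.0% in NK cells. Cdkn2c lies at 4:109660876-109667189 and Cdkn2d at 9:21288410-21291407, both on the minus strand with no annotated overlap. Of the family outside the 10, Cdkn1c (p57) had 8.66 and 17.2 CPM in MNK-3, 2.37 CPM in ILC2 and 3.95 CPM in NK cells.

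Per kb of exon, the order of the 10 genes differed between cell types. In MNK-3 the leading 4 were Cdkn2a (52.0 and 125 CPM per kb), Cdkn2c (45.4 and 90.2), Cdk4 (36.2 and 69.8) and Cdkn1b (29.8 and 62.6), in that order in both libraries. The gaps between neighbours in this order were smaller than the difference between the libraries. In ILC2 the order began with Cdk4 (66.1 CPM per kb), Cdkn2d (52.6), Ccnd2 (46.8) and Cdkn1b (41.7), and Cdkn2a was next to last at 4.83. In NK cells it began with Ccnd2 (63.0 CPM per kb), Cdkn1b (49.6), Cdkn2d (32.8) and Ccnd3 (28.6). The orders in ILC2 and NK cells rest on 1 library each. Ccnd1 came last in ILC2 (0.448 CPM per kb), NK cells (0.928) and MNK-3 replicate 2 (0.197), and Ccnd2 in MNK-3 replicate 1 (1.62). Summed by role, D-type cyclins reached 11.8 and 9.81 CPM per kb in MNK-3, 64.6 in ILC2 and 92.5 in NK cells. The kinases reached 42.5 and 75.9 CPM per kb in MNK-3, 93.6 in ILC2 and 22.3 in NK cells. Cdkn2a, Cdkn2c and Cdkn2d together reached 126 and 259.6 CPM per kb in MNK-3, 69.6 in ILC2 and 38.9 in NK cells. The ratio of cyclin to kinase transcripts per kb, which scaling between libraries does not touch, was 0.278 and 0.129 in MNK-3, 0.690 in ILC2 and 4.16 in NK cells. The ratio of the 5 inhibitors to the cyclins was 13.7 and 33.9 in MNK-3, 2.21 in ILC2 and 0.970 in NK cells. The inhibitor sums take all Cdkn2a reads, which do not separate p16INK4a from p19ARF, and p19ARF is not an INK4 kinase inhibitor. These are ratios of transcripts, and protein was not measured here.

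The partners downstream of the G1 kinases are given as lists, to be read beside the tested genes: their median log2 was 0.68 for MNK-3 over NK cells, 0.78 for MNK-3 over ILC2 and -0.05 for ILC2 over NK cells, and the shares at 2-fold are those given above. Of 7 genes of the cyclin E and A kinases, 5 were 2-fold or more higher in MNK-3 than in NK cells (median log2 2.19) and 7 in ILC2 than in NK cells (median 2.03), with 0 lower in either. Between MNK-3 and ILC2 none of the 7 reached 2-fold (median 0.06). Ccna2, the S-phase cyclin, had 233 and 543 CPM in MNK-3, 279 CPM in ILC2 and 10.2 CPM in NK cells. The E2F and DP factors, 10 genes, gave 8 that were higher in MNK-3 than in NK cells and 0 that were lower (median 1.86), 9 higher and 0 lower in ILC2 than in NK cells (median 2.00), and 2 higher and 1 lower in MNK-3 than in ILC2 (median 0.00). Of the 3 pocket proteins, MNK-3 had 2 above NK cells and 0 below (median 1.46), 1 was higher and 0 lower in ILC2 than in NK cells (median 0.48), and none reached 2-fold between MNK-3 and ILC2 (median 0.60). Rb1, the retinoblastoma gene, had 109 and 238 CPM in MNK-3, 302 CPM in ILC2 and 47.0 CPM in NK cells; Rbl2, the pocket protein of resting cells, had 261 and 578 CPM in MNK-3, 277 CPM in ILC2 and 447 CPM in NK cells. Rb1 was thus lowest in NK cells and Rbl2 was not. Of 8 genes of p27 and cyclin turnover, 2 were higher in MNK-3 than in NK cells and 0 lower (median 0.40), 1 higher and 0 lower in MNK-3 than in ILC2 (median 0.38), and 1 higher and 1 lower in ILC2 than in NK cells (median 0.13). With both MNK-3 libraries, the medians of this list in MNK-3 lay below those of all tested genes, and 1 of 8 against ILC2 is near the 8.48% of tested genes. Without replicate 1 they lay above them, at 0.26 against -0.20 over NK cells and 0.45 against 0.00 over ILC2. The 3 genes of the CDK-activating kinase gave 1 higher in MNK-3 than in NK cells, 2 lower in MNK-3 than in ILC2 and 1 higher in ILC2 than in NK cells. These MNK-3 counts depended on the library, as did those of all tested genes. Without replicate 2, tested genes had a median of 0.73 against NK cells (11.1% higher, 10.3% lower) and 0.93 against ILC2 (8.24% higher, 15.8% lower). Without replicate 1 their medians were -0.20 against NK cells (12.4% higher) and 0.00 against ILC2 (7.55% higher). Without replicate 2 the cyclin E and A genes gave 4 higher than in NK cells (median 1.41) and 3 lower than in ILC2 (median -0.84), and the E2F and DP factors 5 higher and 1 lower than in NK cells (median 1.01) and 0 higher and 2 lower than in ILC2 (median -0.70). The pocket proteins then gave 0 higher and 1 lower in each (medians 0.39 and -0.46), the turnover genes medians of -0.22 and -0.28, and the CDK-activating kinase 0 higher and 1 lower than in NK cells. Without replicate 1, 4 E2F and DP factors were higher than in ILC2 (median 0.23), as were 1 cyclin E and A gene (median 0.38), 1 pocket protein (median 0.98) and 3 turnover genes (median 0.45), and 3 turnover genes were higher than in NK cells (median 0.26). None of these list genes was called.

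Markers of proliferation moved with the groups. Of 20 proliferation genes, 19 were 2-fold or more higher in MNK-3 than in NK cells (median log2 4.14) and 18 in ILC2 than in NK cells (median 4.06), and none lower in either. None reached 2-fold between MNK-3 and ILC2, at a median of 0.23. Without replicate 1, 2 were higher, beside 7.55% of tested genes (medians 0.60 and 0.00). Without replicate 2, 4 were lower, beside 15.8% (medians -0.75 and 0.93). The summed level of the list was 6517 and 14689 CPM in MNK-3, 8101 CPM in ILC2 and 1112 CPM in NK cells, with no gene of the list at 0. Of the 20, 1 was called higher in MNK-3 than in NK cells, where 0.00791% of tested genes were called higher. This was Cenpf, a kinetochore gene, at 509.9 and 966 CPM in MNK-3, 490.0 CPM in ILC2 and 18.1 CPM in NK cells. Its limma voom log2 fold was 5.35 for MNK-3 over NK cells (SE 1.39, adjusted p = 0.0283). The call depended on scaling: with median-of-ratios factors or factors from abundant genes, 0 of the tested genes were called higher in MNK-3 than in NK cells. Ccnb1, the mitotic cyclin, had 35.9 and 52.1 CPM in MNK-3, 80.1 CPM in ILC2 and 0.416 CPM in NK cells (2 reads), and Plk1, a mitotic kinase, had 68.0 and 141 CPM in MNK-3, 162 CPM in ILC2 and 3.33 CPM in NK cells. Cdk4, Cdk6, Cdkn1a, Cdkn2a and Cdkn2c were, like this list, lower in NK cells than in MNK-3 and ILC2, while Ccnd2 and Ccnd3 were highest in NK cells. The part of proliferation in these values was not tested.

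**Figure D5:**
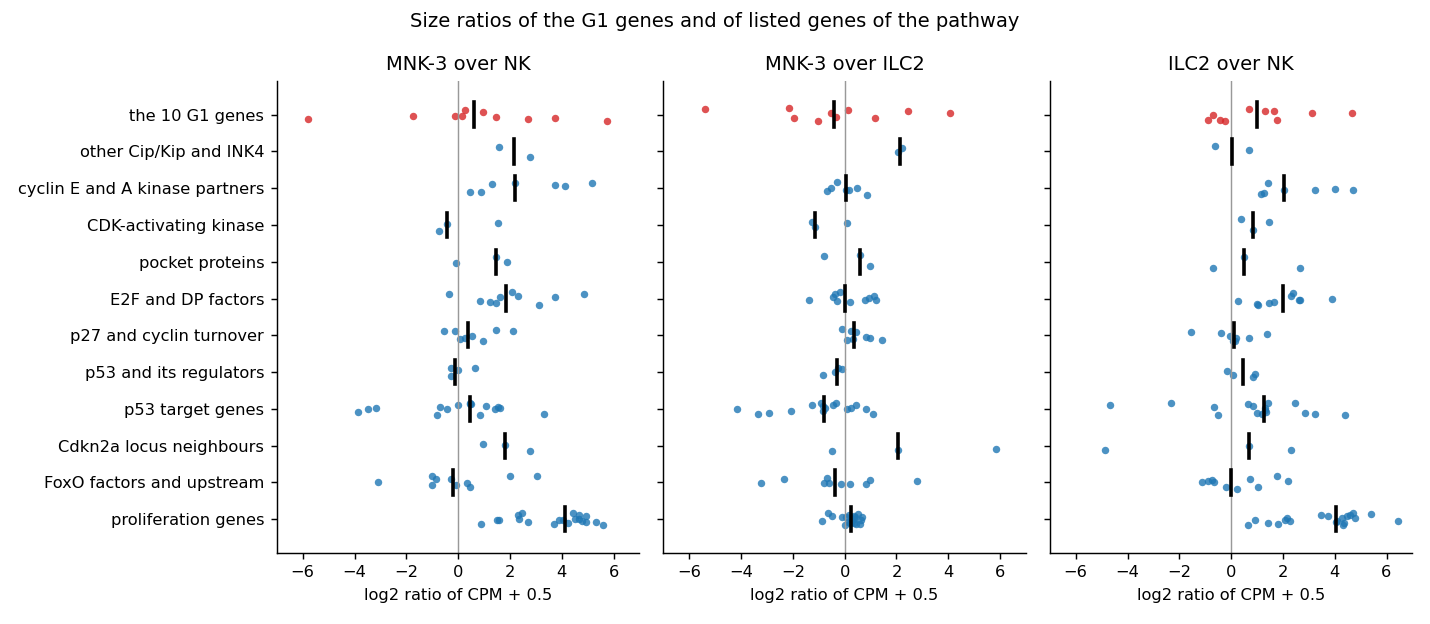
Log2 ratio of CPM + 0.5 for the 10 G1 genes (red) and for each listed gene of the pathway (blue) in the 3 comparisons, 1 point per gene, with the list median as a bar. The proliferation genes lie well above 0 in MNK-3 over NK cells and in ILC2 over NK cells and around 0 in MNK-3 over ILC2, while the 10 G1 genes spread to both sides.

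The genes whose pattern was most like that of a D-type cyclin were found by the Euclidean distance of centred log2(CPM + 0.5) over the 4 libraries, among 12205 genes with 10 CPM or more in some library. For Ccnd2 these were Casp1 (distance 0.59), Ctss (0.66) and Ctla2a (1.10). Casp1, an inflammatory caspase, had 1.24 and 0 CPM in MNK-3, 46.4 CPM in ILC2 and 38.7 CPM in NK cells. Ctss, the protease cathepsin S, had 1.97 and 0 CPM in MNK-3, 70.6 CPM in ILC2 and 67.8 CPM in NK cells. For Ccnd3 they were Eif3j1 (0.12), Rhoq (0.12) and Mob3a (0.14). They share its order of NK cells over ILC2 over MNK-3 because they were picked for a like pattern. Ccnd1 stayed under 10 CPM in each library and was not matched.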

How the data were processed

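Total RNA (integrity number above 9) was made into libraries with a SMARTer stranded Pico kit and sequenced as 38 bp pairs, per the labels' protocols. The submitters' processing notes name STAR 2.7.8a for alignment and HTSeq for counting, with mm10/GRCm38 as the build; strand setting and gene set are not given in the sources used here. The deposited values, recorded under the unit other, are whole-number counts per gene, not normalized by the authors. The protocols call for 2 technical replicates per experiment, and whether the tables pool them is not known; nothing says that the MNK-3 libraries came from separate cultures.

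NK cells and ILC2 were counted over 53465 genes and MNK-3 over 31053. The 30731 shared genes were used, which left out 3.05% of gene reads in NK cells, 1.89% in ILC2, and 0.131% and 0.0399% in MNK-3. Entries naming no gene (76.5% and 26.6% of reads in MNK-3, 25.9% in ILC2 and 49.3% in NK cells) stayed out of library sizes and tests.

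Counts were scaled by own code for trimmed means (TMM; factors 1.39 and 0.852 for MNK-3, 0.816 for ILC2 and 1.04 for NK cells) and tested with limma voom (limma 3.58.1, R 4.3.3), two-sided, in 1 fit of 3 groups over 25283 genes (minimum count 10, minimum total 15). The prior degrees of freedom were infinite, so each SE rests on spread pooled over genes. The fit was also run on simulated counts. These had the same dispersion for every gene and no offset between the MNK-3 libraries, unlike the data, so that run does not bear on the errors here. Size ratios took log2 of CPM + 0.5, with the mean CPM of MNK-3. Exon lengths came from GENCODE M21 and promoter windows from RefSeq. Of the pathway lists, the text names the 3 genes with the largest size ratio per comparison, those called, and other listed genes picked after their values were seen; the E-box and p53-type motifs were also picked so. The 10 genes and the lists were chosen with earlier results of these data known. Alternatives were other scalings, no filter, equal depth, fewer libraries, other pseudocounts and raw reads for shares. Depth limits the low genes: 3 reads correspond to 0.0844 and 0.232 CPM in MNK-3, 0.395 CPM in ILC2 and 0.624 CPM in NK cells.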

Additional observations from a re-analysis of the deposited data

How the results depend on the processing

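Calls moved with the scaling and the depth. For MNK-3 over NK cells, 1 of the 10 genes was called, against 2 with library totals, 2 at equal depth and 0 with factors from abundant genes. For MNK-3 over ILC2 1 was called, against 4 with library totals, 2 at equal depth, 0 with median-of-ratios factors and 0 with factors from abundant genes. For ILC2 over NK cells 0 were called, against 1 at equal depth. Calls over all genes moved likewise: 2 higher and 131 lower for MNK-3 over NK cells became 73 and 517 with library totals, 251 and 307 at equal depth and 0 and 87 with factors from abundant genes; against ILC2, 2 and 84 became 228 and 603, 61 and 201, and 23 and 221, and 0 and 55 with median-of-ratios factors. For ILC2 over NK cells 0 and 0 became 123 and 209 with library totals, 153 and 75 at equal depth, 8 and 32 with factors from abundant genes, and 7 and 32 with no filter. The median log2 of all tested genes in MNK-3 over NK cells, 0.68, was 0.88 with library totals, 0.38 with median-of-ratios factors, 0.97 with factors from abundant genes and -0.20 without replicate 1. The cause was not tested.

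Fitted folds near 0 reversed. For MNK-3 over NK cells, Ccnd1 turned to -0.21 (median-of-ratios), -0.0045 (abundant genes) and -0.063 (equal depth), and Cdkn2d to -0.083 (median-of-ratios) and -0.14 (equal depth). For MNK-3 over ILC2, Cdk4 turned to 0.00098 (library totals) and 0.046 (abundant genes), and Cdkn1b to -0.10 (median-of-ratios). The totals by size, leaving out either MNK-3 library, were 6 for MNK-3 over NK cells, 6 to 8 for MNK-3 over ILC2, and 4 for ILC2 over NK cells, but the genes changed: without replicate 2, MNK-3 over NK cells had 3 higher and 3 lower in place of 4 and 2, and MNK-3 over ILC2 had 2 higher and 6 lower in place of 2 and 4. Scaling changed them too. With library totals or factors from abundant genes, Cdk6 was also counted as higher for MNK-3 over NK cells, which made 7. Ccnd3 was no longer counted for MNK-3 over ILC2, which left 5. For ILC2 over NK cells the total stayed at 4, with Ccnd3 counted as lower in place of Cdkn2c as higher. Without either MNK-3 library no residual degree of freedom is left, so sizes only were recomputed.

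From raw reads rather than reads per kb, Ccnd2 made up 74.0% of D-type cyclin reads in ILC2 and 69.9% in NK cells. The raw-read shares of MNK-3 below are means of its libraries, with replicates 1 and 2 in brackets. Cdk6 made up 35.2% of kinase reads in MNK-3 (42.9% and 27.5%), 64.2% in ILC2 and 41.7% in NK cells. The NK share lay between those of the MNK-3 libraries, so no direction is given for that pair of groups. Cdkn1a made up 12.3% of Cip/Kip reads in MNK-3 (13.1% and 11.5%) and 37.2% in ILC2. Cdkn2c made up 75.3% of its pair in MNK-3 (72.9% and 77.8%), 28.4% in ILC2 and 20.3% in NK cells. By library, MNK-3 shares per kb ran from 5.28% to 13.7% for Ccnd2, 8.08% to 14.9% for Cdk6, 14.3% to 16.2% for Cdkn1a and 61.2% to 67.2% for Cdkn2c. No paired analysis was possible because the groups share fewer than 2 replicate numbers.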

Other observations

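Genes upstream of the G1 inhibitors and cyclins were counted in the same way, 10 in all (FoxO factors, the Myc network, Bmi1 and Ezh2). In MNK-3 relative to NK cells, 2 were 2-fold or more higher and 3 lower, beside 14.0% and 5.16% of tested genes (median log2 -0.19, all tested genes 0.68). Against ILC2, 1 was higher and 2 lower in MNK-3, beside 8.48% and 7.19% (median -0.36, all tested genes 0.78). In ILC2, 3 were higher and 1 lower than in NK cells, beside 12.4% and 4.43% (median 0.01, all tested genes -0.05). The 2 higher than in NK cells and the 1 higher than in ILC2 were near the shares of tested genes. None of the 10 was called by limma voom. Without replicate 2, 5 were lower in MNK-3 against NK cells, beside 10.3% of tested genes (medians -0.95 and 0.73). Against ILC2, 5 were then lower, beside 15.8% (medians -1.17 and 0.93). Without replicate 1, 3 were higher in MNK-3 than in ILC2, beside 7.55% of tested genes (medians -0.09 and 0.00). ILC2 then had 2 higher and 2 lower against NK cells, beside 10.6% and 5.04% (medians -0.11 and -0.16). Mxd1, an antagonist of Myc, had 37.1 and 36.9 CPM in MNK-3, 190.4 CPM in ILC2 and 316 CPM in NK cells, in the order of Ccnd2. Foxo1, a factor that holds lymphocytes in quiescence, had 83.7 and 163 CPM in MNK-3, 70.1 CPM in ILC2 and 152 CPM in NK cells. Ezh2, a Polycomb methyltransferase, had 137 and 264 CPM in MNK-3, 172 CPM in ILC2 and 49.7 CPM in NK cells. Bmi1, another Polycomb gene, had 51.3 and 99.2 CPM in MNK-3, 114 CPM in ILC2 and 55.1 CPM in NK cells.

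Among the p53 targets, Btg2 and Plk2 were highest in NK cells, where Cdkn1a was lowest. Btg2, an antiproliferative gene, had 42.7 and 54.2 CPM in MNK-3, 87.4 CPM in ILC2 and 436 CPM in NK cells. Plk2, a kinase gene, had 2.36 and 0.232 CPM in MNK-3, 0.527 CPM in ILC2 and 26.01 CPM in NK cells. Ccng1, by contrast, had 58.2 and 127 CPM in MNK-3, 386 CPM in ILC2 and 150.0 CPM in NK cells, highest in ILC2 like Cdkn1a.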
